A study of Caenorhabditis elegans with 10 samples.

Results

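Alternative internal exonic bins are pieces of the middle of a gene that some of its annotated transcripts contain and others lack. The exons of each gene had been divided into non-overlapping bins at every annotated exon boundary, and a bin was taken as alternative and internal when it was at least 25 bases long, was missing from 1 or more transcripts of its gene, and was neither the first nor the last bin of any transcript. The choice used the annotation alone and no measured value. It gave 6445 of the 108516 exonic bins, in 1868 of the 4412 genes with 2 or more transcripts. Each was measured by its share, the percent of all counts of its gene that fell in the bin.

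The bins were measured in polyadenylated RNA of whole Caenorhabditis elegans larvae of the wild-type strain N2 at the first larval stage, L1. All larvae had hatched without food and had been in developmental arrest for about 12 h. The starved group, with 3 libraries, was collected at that point. The other groups were fed E. coli HB101 and collected 1 h (2 libraries), 3 h (2 libraries) and 6 h (3 libraries) later, so the comparisons ask how early and in which genes the use of exons changes as development resumes. Each library pooled many whole animals, and in such bulk samples fewer cells of a type and less RNA per cell cannot be told apart. Separate cultures are not named for the libraries, so the p-values reflect only how much these samples vary, and that variation may be technical.

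Alternative splicing joins different sets of exons from a single gene, by skipping a cassette exon, keeping an intron, or moving a splice site. Transcripts of a gene can also begin at a later promoter or end at an earlier polyadenylation site, and then lack whole stretches of internal exons. In nematodes as in other animals, SR proteins and related RNA-binding proteins influence which exons are kept, and several of them regulate exons of their own transcripts.

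Most of the 6445 bins were alternative through a later start or an earlier end of other transcripts rather than through a splicing choice within them. Of all members, 2684 lay before the start of every transcript that lacked them, 1618 lay after the end of every such transcript, and 61 lay outside such transcripts on both sides. The remaining 2082 lay within a transcript that skips them. These were 966 cassette exons, 449 retained introns, 254 extensions of a 5′ splice site, 205 extensions of a 3′ splice site and 208 mixed bins. The mixed bins were of different kinds against different transcripts or fitted none of these kinds. All 6445 bins together had a median length of 125 bases. Among cassette exons 54.5% had a length that is a multiple of 3, against 39.1% of the constitutive internal bins, those found in every transcript of the same kind of gene. The giant muscle protein gene *ttn-1* held the most members, 63, followed by *him-4* with 60, *fln-2* with 50 and *dys-1* with 42, while 834 genes held 1 each.

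Summed counts in bins ranged from 19163997 to 38607167 per library, and the members held 4.73% to 6.33% of them. Of the 6445 members, 5534 in 1585 genes had enough counts to be tested, 911 did not, and 55 of those had no count in any library. The libraries differed in how reads lay along transcripts. In 3389 genes with a single transcript, the median percent of counts in the bins before the midpoint of the bin order, counted from the 5′ end, was 28.9, 29.5 and 34.1 in the 3 starved libraries, 33.1 and 33.2 at 1 h, 33.4 and 33.8 after 3 h, and 33.5, 35.5 and 35.0 at 6 h. Starved replicates 1 and 2 were thus below all fed libraries, and starved replicate 3 was among them. This percent is partly confounded with feeding, through 2 of the 3 starved libraries, and may bear on bins near the start of long genes. Summed levels of muscle and neuronal marker genes were also lower after feeding, as were those of pharynx (mean 2607 CPM in starved larvae and 1286 at 6 h) and of oocyte and embryo markers (52.7 and 24 CPM), while those of coelomocytes, glia and excretory cell were higher (349 and 559 CPM). The 7 measured muscle markers summed to between 6466 and 9676 CPM, counts scaled to a common library size, in starved larvae and to between 3213 and 4497 at 6 h, and the 9 neuronal markers to between 2623 and 3610 and to between 1350 and 1585. No marker of these lists was at 0 in any group. The part of these shifts in the results below was not tested except where stated.

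A change in relative use, the change of a bin compared with the change of its gene, was called at a Benjamini-Hochberg adjusted p under 0.05 in edgeR's quasi-likelihood test, over all 82149 bins tested. At 1 h, 22 members in 16 genes were called against starved larvae, 14 higher and 8 lower, where 0.0755% of all bins were called, 0.045% higher and 0.0304% lower. At 3 h, 17 members in 9 genes were called, 10 higher and 7 lower, against a background of 0.056%, 0.0304% higher and 0.0256% lower. At 6 h, 50 members in 26 genes were called, 25 higher and 25 lower, against a background of 0.187%, 0.0962% higher and 0.0913% lower. These 3 comparisons share the starved libraries. The called members were 0.398%, 0.307% and 0.904% of those tested at the 3 times. An edgeR unadjusted p under 0.05 was found for 7.03%, 5.75% and 9.65% of the members tested and for 3.34%, 2.30% and 5.13% of all bins tested. The latter are the background for counts at that level in the lists below. In each of these calls the shares in the fed libraries did not overlap those in the starved libraries, but neither did those of 23.9%, 20.4% and 11.4% of all bins tested. For most bins described below, no overlap at the time of the call was also a condition of their choice. Such a separation is therefore not further support for them. The smallest absolute log2 change called was 1.62 at 1 h, 1.79 at 3 h and 1.28 at 6 h. In counts simulated for the 6 h comparison, 5 of 100 bins changed 2-fold and 64 of 100 bins changed 4-fold were recovered. The simulation drew each bin independently with 1 common spread, and changed only bins with a mean count of 20 or more. Real bins of a gene share variation and may differ in spread, so these rates need not hold for the measured bins. How many smaller changes were missed at this depth and number of libraries is not known. No member was called between consecutive fed times by edgeR, against 0% of all bins in both comparisons. From 1 h to 3 h, 209 members (3.78% of those tested) had an unadjusted p under 0.05, against 2.45% of all bins, and DESeq2 and limma called 0. Fitted on the libraries of 1 h and 3 h alone, however, edgeR called 72 members, 29 higher and 43 lower, with 697 at an unadjusted p under 0.05. From 3 h to 6 h, 90 members (1.63%) had an unadjusted p under 0.05, against 1.26% of all bins. DESeq2 called 1 and limma called 0, and edgeR on those libraries alone called 1.

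Set beside the other kinds of bin, the alternative first bins had 26 of 1849 called at 6 h (20 higher, 6 lower), the alternative last bins had 14 of 3848 (0 higher, 14 lower) and the constitutive internal bins had 13 of 19431 (4 higher, 9 lower). The differences between these classes were not tested. Among the members the counts differed by kind of bin. Of the 2381 tested bins that lie before a later start, 18 were higher and 5 lower at 6 h, and their median log2 change was 0.17. Of the 837 tested cassette exons, 2 were higher and 9 lower, and their median was -0.06. The median over all bins tested was 0.02. Among constitutive internal bins, those of single-transcript genes included, bins nearest the 5′ end had a median of 0.23 at that time, those in the middle 0.08 and those nearest the 3′ end -0.10.

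**Figure D1:**
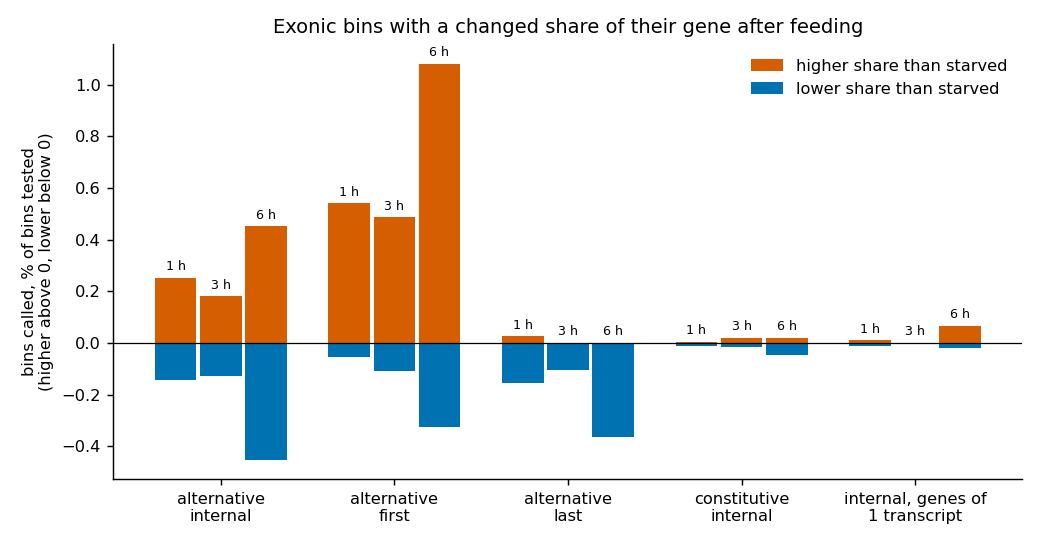
Percent of tested bins called higher (above 0) or lower (below 0) than in starved larvae at 1 h, 3 h and 6 h, for 5 classes of exonic bin. Alternative internal bins were called in both directions, with 25 higher and 25 lower at 6 h, alternative first bins mostly higher and alternative last bins mostly lower.

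The calls were concentrated in few genes. In all, 67 members in 37 genes were called at 1 or more times, 3 of them at all 3 times (*spds-1* bin 8, *M01H9.3* bin 10 and *rpl-31* bin 6), 16 at 2 times and 48 at 1 time. In 13 genes 2 or more members were called, which together were 43 of the 67. No gene had called members in both directions, and no member was called in opposite directions at different times. Bins of a gene share its transcripts and are not independent. Of the 67, 27 had a length that is a multiple of 3.

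**Figure D2:**
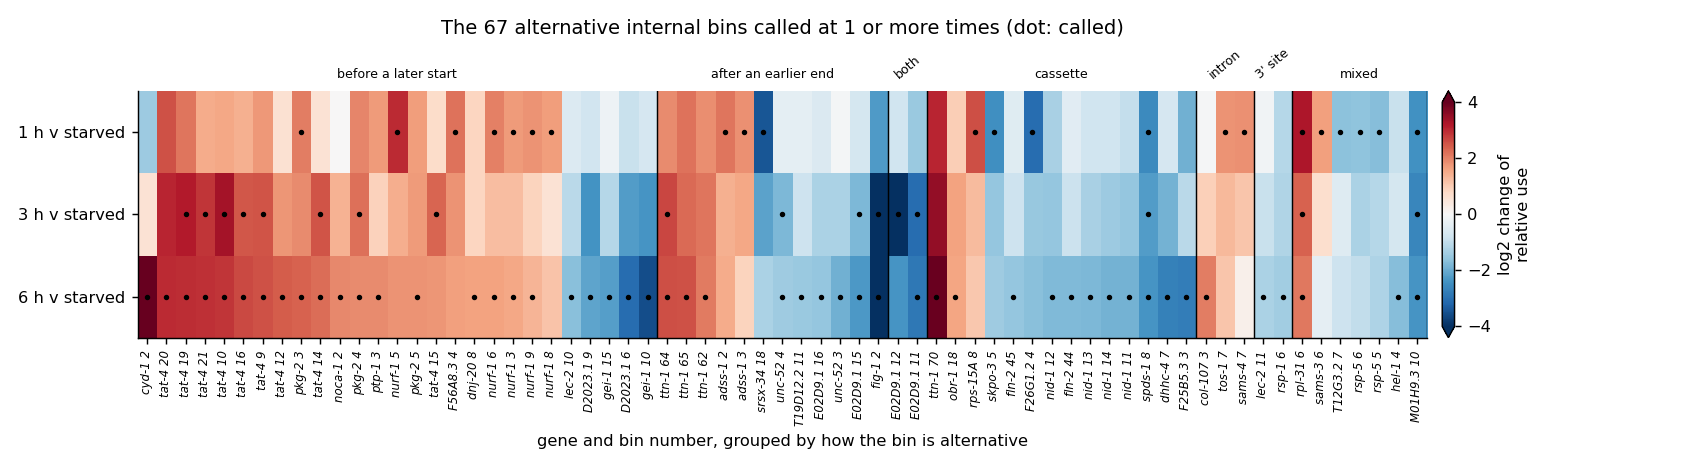
Log2 change of relative use at 1 h, 3 h and 6 h against starved larvae for the 67 called members, grouped by how the bin is alternative. Dots mark the calls. Bins before a later start were mostly higher after feeding, led by *tat-4*, *nurf-1* and *pkg-2*, and most cassette exons were lower.

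With the 5′ percent of each library added to the fit, 8, 1 and 2 members were called at 1 h, 3 h and 6 h. The term is partly confounded with the groups, since the only starved library in the fed range is replicate 3. All 41 named values, the calls of the bins chosen by rule for description below, kept their sign under it. Of these, 6 kept their calls, all at 1 h (*tos-1*, *rpl-31*, *rps-15A*, *sams-4*, *spds-1* and *skpo-3*), and the calls of the other named values did not hold. With 2 libraries each, the 1 h and 3 h groups rested on every library. Without 1 h replicate 1 1 member was called at 1 h, and without 1 h replicate 2 there were 2. Of the named 1 h calls, that of *rpl-31* was kept without either and that of *tos-1* was lost without replicate 1 but not replicate 2. Calls that other settings ended are given beside each gene, the settings being limma's voom, edgeR on the 2 compared groups alone, edgeR on barcodes 1 to 8 alone, and limma on the log2 ratio of a bin to the constitutive internal bins of its gene (the constitutive ratio). Leaving out starved replicate 2 left 5 members called at 1 h. At 3 h, 0 were called by edgeR without 3 h replicate 1 and 3 without 3 h replicate 2, and of the named 3 h calls that of *rpl-31* alone was kept without replicate 2. At 6 h, 8 of the 19 named values kept their call without each of the 10 libraries in turn (*col-107*, *tat-4*, *noca-1*, *cyd-1*, *lec-2*, *spds-1*, *M01H9.3* and *fln-2*). Of these, the *cyd-1* bin had enough counts to be tested only through the 6 h libraries, as described below.

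Splicing factors were among the genes whose own internal bins changed. Of the list of splicing regulators and core splicing factors, 24 genes held members, of which 96 were tested. The list also holds *tos-1*, which is counted here although it is known for responding to such factors. At 1 h 1 was higher (*tos-1*) and 2 were lower (both in *rsp-5*), at 3 h edgeR called 0 (11 had an unadjusted p under 0.05, DESeq2 called 2 and limma 1), and at 6 h 2 were lower (*hel-1* and *rsp-1*). The median log2 change of the list was 0.01, -0.02 and 0.06 at the 3 times, where that of all bins tested was 0.03, 0.01 and 0.02.

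*tos-1* is known for a splicing pattern that responds to the factors that recognise 3′ splice sites. Its bin 7 (chrV:9343770-9343918 of the WS210 assembly, minus strand) is a 149-base intron that 4 of the 5 annotated transcripts keep. The bin held 7.84%, 4.65% and 4.24% of the gene's counts in the starved libraries, 19.8% and 18.1% at 1 h, 12.7% and 14.4% after 3 h, and 10.5%, 10.9% and 14.3% at 6 h. All fed libraries were above all starved ones, with the 1 h libraries highest. Its relative use rose at 1 h by a log2 of 1.79 ± 0.27 (SE; edgeR adjusted p = 1.18e-04), and missed the threshold at 3 h (1.30 ± 0.27, adjusted p = 0.0539) and 6 h (1.12 ± 0.25, adjusted p = 0.0522). The counts of the whole gene moved the other way, from 777 CPM in starved larvae to 348 at 1 h and 180 at 6 h. The authors' deposited FPKM values, a single pooled estimate per transcript and time, put the transcripts with the bin at 77.1% of the gene in starved larvae and at 96.4% at 1 h. Without 1 h replicate 1 the call at that time did not hold (1.72, adjusted p = 0.104). In the constitutive ratio it was not called either (1.60, adjusted p = 0.132).

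The SR proteins are RNA-binding proteins with a domain rich in arginine and serine. In *rsp-5*, bin 5 (chrII:6490671-6490751, plus strand) belongs to 1 of 4 transcripts. It held 8.47%, 7.23% and 5.15% of the counts in starved larvae, 2.01% and 2.19% at 1 h, 3.53% and 2.79% after 3 h, and 3.50%, 1.53% and 3.89% at 6 h. The starved libraries were above all fed ones, and relative use fell at 1 h (log2 -1.71 ± 0.37, adjusted p = 0.0191). The adjoining bin 6 fell with it (-1.62 ± 0.38, adjusted p = 0.0473). The level of the whole gene meanwhile rose from 64.8 CPM to 252 CPM, so the counts in bin 5 itself went from 4.48 to 5.29 CPM. In *rsp-1*, bin 6 (chrII:11454558-11454940, plus strand) is a 383-base upstream extension of an exon at its 3′ splice site, present in 1 of 4 transcripts. Its shares were 9.19%, 7.51% and 8.40% in starved larvae, 4.29% and 3.22% at 1 h, 3.74% and 3.44% after 3 h, and 3.28%, 3.04% and 3.19% at 6 h. Every fed library was below every starved one, and the 3 libraries at 6 h lay within a narrow range. Relative use fell at 6 h (-1.40 ± 0.25, adjusted p = 0.00451), with similar values at 1 h (-1.16 ± 0.29, adjusted p = 0.338) and 3 h (-1.22 ± 0.29, adjusted p = 0.327) that did not pass. The authors' deposited FPKM values gave the transcript with this bin 21.3% of the gene in starved larvae and 6.66%, 6.71% and 6.39% at the fed times. For *hel-1*, which encodes a DEAD-box RNA helicase of the UAP56 family, the 41-base bin 4 held 0.656%, 0.708% and 1.16% of the counts in starved larvae and 0.295%, 0.232% and 0.251% at 6 h. These groups did not overlap, and relative use fell by a log2 of 1.71 ± 0.29 (-1.71; adjusted p = 0.00404). The 6 h calls of both *rsp-1* and *hel-1* were lost without replicate 2 at 6 h (adjusted p = 0.0563 for each), that of *hel-1* also without starved replicate 3 (0.105), and that of *rsp-5* at 1 h without starved replicate 2 (0.116) or either 1 h library. That of *rsp-5* was also lost in the constitutive ratio (0.51), that of *rsp-1* on the 2 groups alone (0.0515) and that of *hel-1* on barcodes 1 to 8 (0.152).

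In 2 ribosomal protein genes, the relative use of a bin found in a single annotated transcript rose at 1 h, and its share was lower at the later times than at 1 h. *rpl-31* encodes a protein of the large ribosomal subunit. Its 56-base bin 6, on chromosome I, belongs to 1 of 8 transcripts and held 0.448%, 0.367% and 0.223% of the counts in starved larvae, 2.93% and 3.30% at 1 h, 2.05% and 1.34% after 3 h, and 1.21%, 1.70% and 1.31% at 6 h. No fed library came near the starved range. Relative use was higher at 1 h (3.24 ± 0.43, adjusted p = 2.36e-07), at 3 h (2.35 ± 0.42, adjusted p = 0.00129) and at 6 h (2.1 ± 0.39, adjusted p = 7.75e-04). The gene as a whole went from 2094 CPM in starved larvae to 1486 at 1 h and 2392 at 6 h. The 1 h call was the only named value to keep its call under each of the 20 alternatives in which it could be tested, with log2 values from 2.85 to 3.53. *rps-15A* encodes a protein of the small subunit. Its bin 8 (chrIII:1950810-1950985, plus strand) is a 176-base cassette exon of 1 of 5 transcripts. The shares were 0.444%, 0.436% and 0.339% in starved larvae, 2.31% and 2.38% at 1 h, 0.901% and 0.969% after 3 h, and 0.781%, 0.959% and 0.728% at 6 h. The 1 h libraries stood well above the rest and relative use rose at that time (2.58 ± 0.49, adjusted p = 0.00489), a call that was lost without starved replicate 3 (2.41, adjusted p = 0.0503) or without either 1 h library. It was also lost under limma's voom (0.173) and on the 2 groups alone (0.104), and the 3 h call of *rpl-31* on barcodes 1 to 8 (0.0563) and without 3 h replicate 1 (0.641). In the list of translation factors and ribosomal proteins, which does not hold these 2 genes, 39 members were tested and edgeR called 0 at each time, with 4, 3 and 1 at an unadjusted p under 0.05. DESeq2 called 3, 0 and 0 of them and limma 0. Neither bin has a length that is a multiple of 3.

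Genes of metabolism gave a pair of related calls. *sams-3* and *sams-4* encode S-adenosylmethionine synthetases, the enzymes that make the methyl donor of the cell. They are near-identical neighbours on opposite strands, so reads can be split between them and both results are uncertain. Bin 7 of *sams-4* (chrIV:5845590-5845962, minus strand) is a retained intron that held 2.25%, 0.774% and 1.54% of the counts in starved larvae, 5.47% and 4.74% at 1 h, 3.06% and 3.18% after 3 h, and 1.52%, 2.19% and 1.40% at 6 h. Only the 1 h and 3 h libraries lay above the starved range, and the 1 h rise passed (1.82, adjusted p = 0.00546). Bin 6 of *sams-3* (chrIV:5848934-5849209, plus strand) went from 1.47%, 1.1% and 1.69% to 4.4% and 4.49% at 1 h and was back at 1.06%, 0.979% and 1.25% at 6 h, with a log2 change at 1 h of 1.65 (adjusted p = 0.0136). Both 1 h calls were lost without starved replicate 2 (adjusted p = 0.189 for *sams-4* and 0.077 for *sams-3*) and without either 1 h library, and that of *sams-3* also without either 3 h library (0.0557 and 0.0533). On the 2 groups alone (0.0522 and 0.0805) and in the constitutive ratio (0.156 and 0.262) neither was called. These were the only calls by edgeR among the 55 tested members of the list of carbon, lipid and one-carbon enzymes, of which 7, 6 and 9 had an unadjusted p under 0.05. DESeq2 called 2, 0 and 0 of the list, and limma 3, 0 and 0. *spds-1* encodes spermidine synthase, a polyamine enzyme. Its bin 8 (chrII:12809186-12809341, plus strand) is a 156-base cassette exon of 1 of 3 transcripts, with shares of 12.8%, 18.7% and 14.9% in starved larvae, 2.57% and 2.89% at 1 h, 2.88% and 3.99% after 3 h, and 2.72%, 3.14% and 3.48% at 6 h. The fall was complete by 1 h and the fed groups overlapped one another. Relative use was lower at 1 h (-2.54 ± 0.47, adjusted p = 0.0029), 3 h (-2.22 ± 0.44, adjusted p = 0.012) and 6 h (-2.36 ± 0.39, adjusted p = 1.53e-04), while the whole gene rose from 13.3 CPM in starved larvae to 67.2 at 3 h and 49.7 at 6 h. The bin itself was at 2.08 CPM in starved larvae and at 0.833, 2.29 and 1.54 CPM at the fed times. The 3 h value of *spds-1* was not called when starved replicate 2 was left out (-2.03, adjusted p = 0.0567), without either 3 h library and in the constitutive ratio (0.0681), nor was the 1 h value without either 1 h library.

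**Figure D3:**
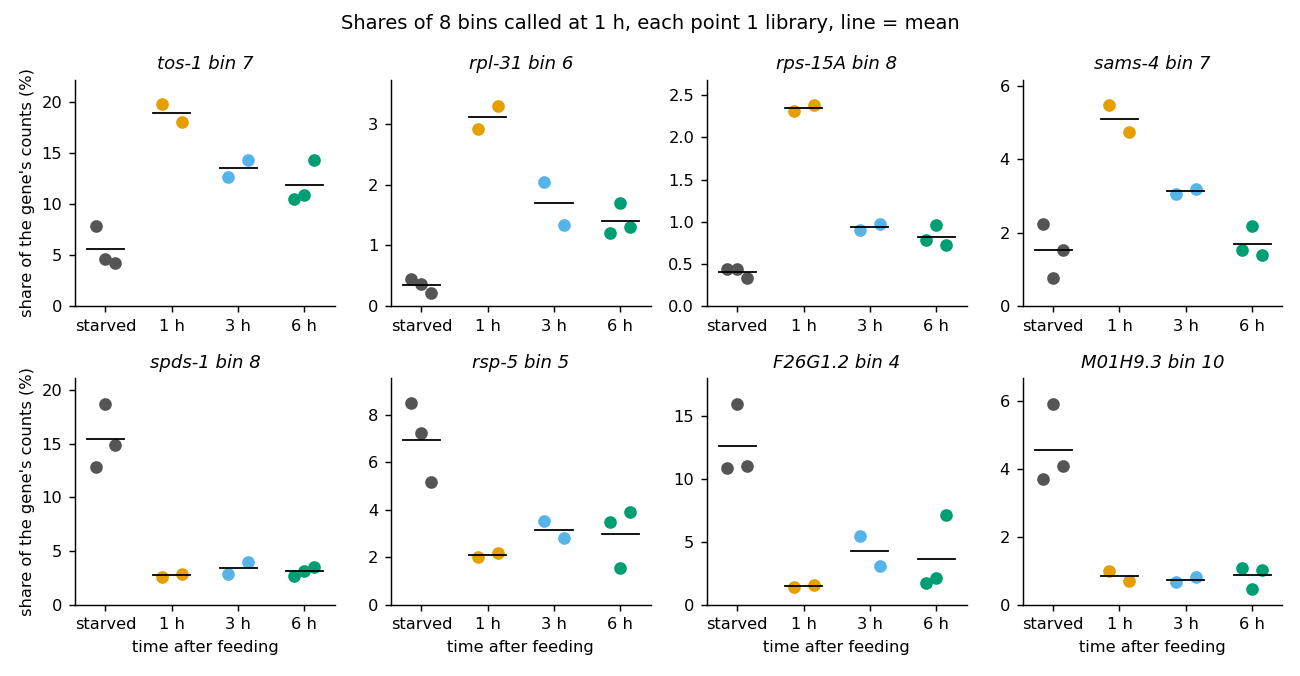
Share of the gene's counts in each of the 10 libraries for 8 bins called at 1 h, with the mean of each group as a line. The *tos-1*, *rpl-31*, *rps-15A* and *sams-4* bins peaked at 1 h, at 19.8% and 18.1% for *tos-1*, and the *spds-1*, *rsp-5*, *F26G1.2* and *M01H9.3* bins were lower in all fed libraries than in all starved ones.

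Other bins that were lower at 1 h belonged to genes of varied or unknown function. *skpo-3* encodes a peroxidase with a ShKT domain, and its cassette bin 5 (chrII:7246764-7247186, plus strand) went from 2.24%, 4.48% and 4.78% to 0.781% and 0.653% at 1 h (-2.44, adjusted p = 0.0129). At 6 h the shares were 0.960%, 1.23% and 2.24%, the highest of which was near the lowest starved value. The cassette bin 4 of *F26G1.2* went from 10.8%, 15.9% and 11% to 1.44% and 1.54% at 1 h (-3.03, adjusted p = 0.0319), and from there to 1.72%, 2.14% and 7.09% at 6 h. Bin 7 of *T12G3.2* went from 4.29%, 5.85% and 4.55% to 1.94% and 1.28% at 1 h (-1.64, adjusted p = 0.0333). For these 3 bins the starved libraries lay above both 1 h libraries, as the rule that chose them required. The mean share at 6 h lay between those of the starved and 1 h groups. In *M01H9.3*, the 75-base bin 10 was low at every fed time, with 3.69%, 5.90% and 4.09% in starved larvae, 0.985% and 0.694% at 1 h, 0.659% and 0.818% after 3 h, and 1.09%, 0.479% and 1.03% at 6 h. It was called lower at each time (-2.43, -2.61 and -2.36, adjusted p = 0.0139, 0.00362 and 2.53e-04), and the whole gene fell from 804 CPM in starved larvae to 41.2 at 1 h. The 1 h shares of this bin therefore rest on few counts. Without starved replicate 2 the 1 h calls of *skpo-3*, *F26G1.2*, *T12G3.2* and *M01H9.3* were lost (adjusted p = 0.077, 0.131, 0.154 and 0.114), as were those of the first 3 without starved replicate 3 (0.067, 0.0503 and 0.054). Those of *F26G1.2* and *T12G3.2* were also lost without either 3 h library (0.0697 and 0.0631, and 0.114 and 0.118). Under limma's voom those of *skpo-3*, *F26G1.2* and *M01H9.3* were lost (0.0888, 0.101 and 0.247), and the 3 h call of *M01H9.3* was too (0.102). In the constitutive ratio those of *skpo-3*, *T12G3.2* and *M01H9.3* were lost (0.0796, 0.0766 and 0.0975), as was the 3 h call of *M01H9.3* (0.0707), and that of *T12G3.2* was also lost on the 2 groups alone (0.0864) and with no filter on low counts (0.0785).

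Bins that lie before a later start were 7 of the 14 members called higher at 1 h, 8 of 10 at 3 h and 18 of 25 at 6 h. They were also 2381 of the 5534 members tested, and their higher calls came from 3, 2 and 7 genes at the 3 times. The difference from other kinds of member was not tested. In *tat-4*, *nurf-1* and *pkg-2* several neighbouring bins of this kind were called. *tat-4* encodes a P4-type ATPase, a family of membrane proteins that move phospholipids across the bilayer. Of its 16 members 15 were tested, and 14 of those had a positive log2 change at each time, with 7 called at 3 h and 8 at 6 h. Bin 21 (chrII:6243136-6243691, minus strand), the second bin of the longer transcripts, held 0.437%, 0.286% and 0.349% of the counts in starved larvae, 1.13% and 0.859% at 1 h, 2.36% and 2.69% after 3 h, and 3.87%, 2.31% and 1.86% at 6 h. All fed libraries were above all starved ones, and relative use rose by a log2 of 2.92 ± 0.50 at 6 h (adjusted p = 1.44e-04). Bin 15, of the called bins of this gene, had the largest change in share at 3 h, from 0.369%, 0.700% and 0.789% to 2.53% and 3.58% (2.31, adjusted p = 0.017). That call was lost without any 1 of the 3 starved libraries (0.2, 0.0591 and 0.0694), without 1 h replicate 2 (0.0517), without either 3 h library, under limma's voom (1.48, adjusted p = 0.904) or on barcodes 1 to 8 (0.0695). The whole gene fell from 274 CPM in starved larvae to 99.8, 34.7 and 32.4, and bin 21 itself stayed between 0.873 and 0.988 CPM in the group means. The higher share of the bin came with fewer counts in the gene as a whole. In the authors' deposited FPKM values the longer transcripts made up 1.33%, 6.65%, 15.4% and 17.8% of the gene over the 4 groups.

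*nurf-1* encodes the large subunit of a nucleosome remodelling complex and has long transcripts that begin upstream and shorter ones that do not. Of its 25 tested members 23 had a positive log2 change at 1 h, with a median log2 of 1.04, and 5 were called, all among bins 3 to 9 of the 5′ part. Bin 3 (chrII:14391586-14392242, plus strand) held 1.69%, 1.06% and 1.70% of the counts in starved larvae, 4.42% and 4.79% at 1 h, 3.50% and 3.10% after 3 h, and 4.61%, 4.43% and 3.35% at 6 h. The groups did not overlap at any fed time, and the change was called at 1 h (1.72 ± 0.35, adjusted p = 0.00489) and 6 h (1.55 ± 0.32, adjusted p = 0.00326). Under limma's voom neither was called (0.96, adjusted p = 0.597, and 1.11, adjusted p = 0.116). In the authors' deposited FPKM values the long transcripts showed no such rise, with 51.7% of the gene in starved larvae and 49.3% at 1 h. *pkg-2* encodes a cGMP-dependent protein kinase. Its bins 3, 4 and 5, neighbours before the start of the shorter transcripts, were all called at 6 h (2.35 for the largest value). Bin 5 (chrIV:8525004-8525242, plus strand) had shares of 1.07%, 1.41% and 1.94% in starved larvae, 4.78% and 4.38% at 1 h, 4.69% and 4.80% after 3 h, and 2.76%, 6.08% and 5.82% at 6 h. All fed libraries were higher, and the 6 h change was 1.79 ± 0.36 (adjusted p = 0.00876). Bin 3 of the gene was called at 1 h (2.04, adjusted p = 0.0411) and bin 4 at 3 h (2.21, adjusted p = 0.0176). *F56A8.3* bin 4 rose at 1 h from 1.53%, 0.301% and 1.72% to 4.42% and 5.32% (2.18, adjusted p = 0.0173). The 1 h calls of *nurf-1*, *pkg-2* and *F56A8.3* were lost without starved replicate 2 (adjusted p = 0.104, 0.269 and 0.649), the library with a low 5′ percent and the greatest depth, and without either 1 h library. At 6 h the call of *nurf-1* was lost without starved replicate 2 (0.0771) and that of *pkg-2* bin 5 without starved replicate 1 (0.121), 6 h replicate 2 (0.133) or 6 h replicate 3 (0.0666). The 1 h calls of *F56A8.3* and *pkg-2* were also lost without either 3 h library (0.0832 and 0.0891, and 0.0861 and 0.0903), that of *pkg-2* without starved replicate 3 (0.141), and its 3 h call without starved replicate 1 (0.223), starved replicate 2 (0.0759) or 1 h replicate 2 (0.0505). With the barcode sets as a replicate block the 1 h call of *pkg-2* bin 3 was lost (1.92, adjusted p = 0.066), as it was with library totals alone (0.0527), under limma's voom (0.0573), on the 2 groups alone (0.0526) and on barcodes 1 to 8 (0.099). In the constitutive ratio the calls of *pkg-2* bins 3, 4 and 5 (0.157, 0.416 and 0.164) and of *F56A8.3* (0.334) were lost, and that of bin 5 also on the 2 groups alone (0.0604).

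**Figure D4:**
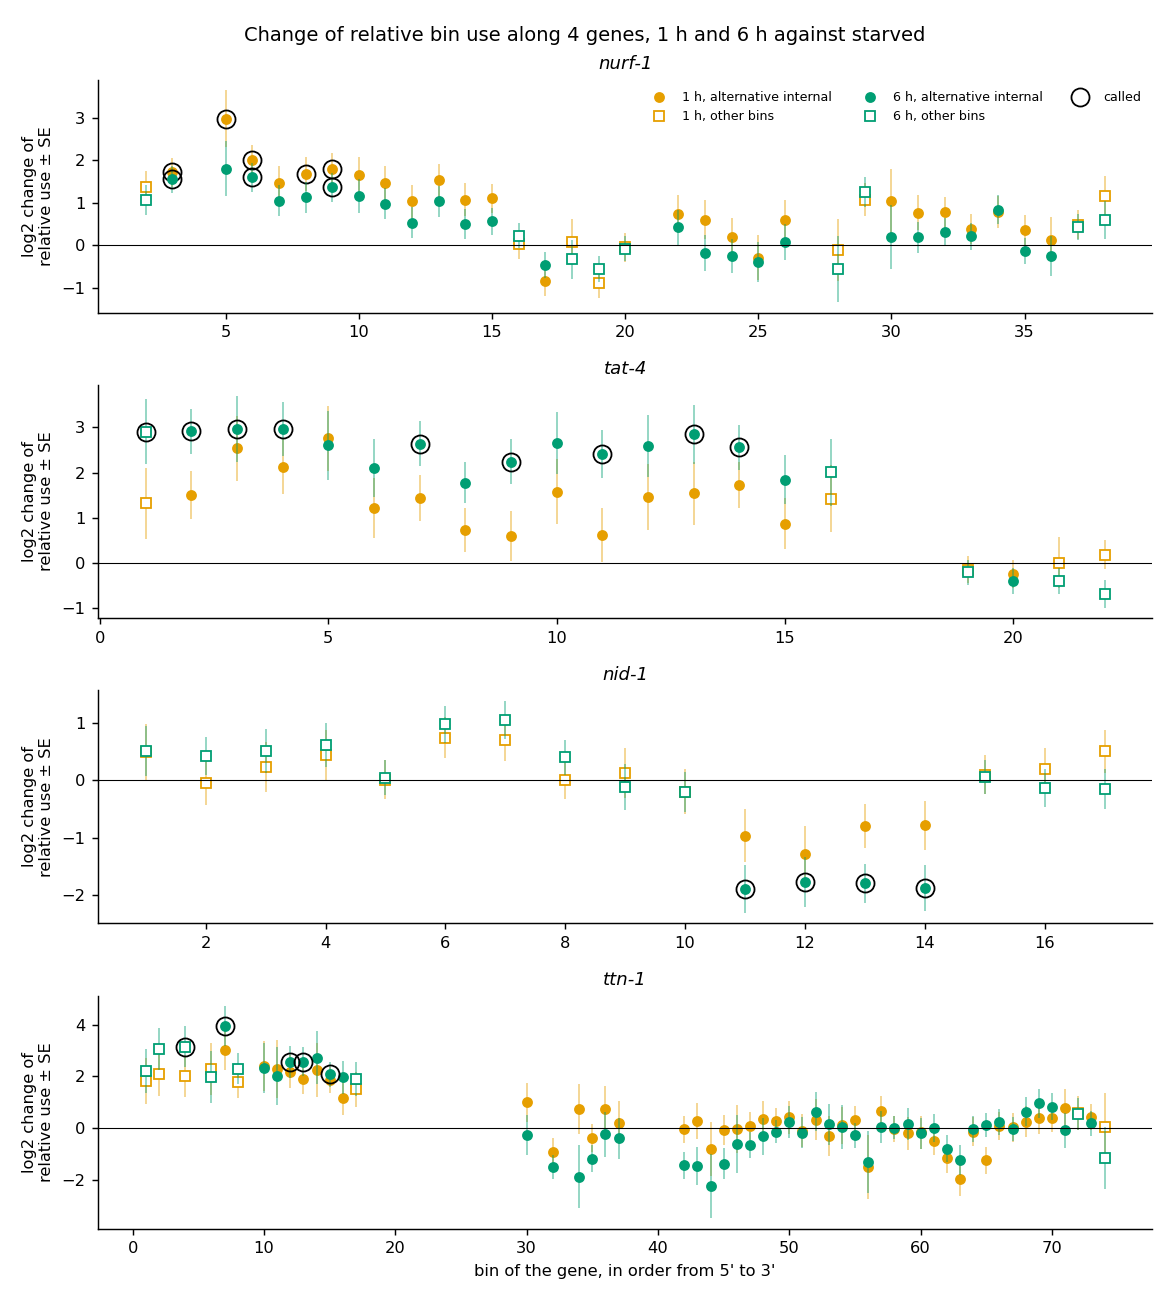
Log2 change of relative use ± SE of each tested bin at 1 h and 6 h against starved larvae, in order from the 5′ to the 3′ end of 4 genes. Filled points are alternative internal bins, open squares other bins, and black circles mark calls. In *nurf-1* and *tat-4* the bins of the long transcripts were higher as a run, in *nid-1* 4 adjoining cassette bins were lower, and in *ttn-1* the 5′ bins were higher whether or not they were alternative.

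Single bins before a later start were called at 6 h in further genes. *ptp-1* encodes a protein tyrosine phosphatase, and its bin 3 (chrIII:3591769-3591985, plus strand) had shares of 1.23%, 0.271% and 0.489% in starved larvae and 2.66%, 2.86% and 1.61% at 6 h (1.90 ± 0.46, adjusted p = 0.0404). This call was lost without any 1 of 8 libraries, with adjusted p up to 0.701 without starved replicate 2, and also with no filter on low counts (0.0576), on the 2 groups alone (0.115), on barcodes 1 to 8 (0.111) and in the constitutive ratio (0.222). *noca-1* is required for microtubule arrays that do not grow from centrosomes. Its bin 2 (chrV:13155628-13156105, plus strand), of 1 of 6 transcripts, had shares of 0.636%, 0.620% and 0.506% in starved larvae, 0.689% and 0.523% at 1 h, 1.75% and 1.42% after 3 h, and 2.26%, 1.88% and 2.78% at 6 h. Starved and 1 h larvae overlapped, and the 3 h and 6 h libraries were above both. The 6 h change was 1.93 ± 0.31 (adjusted p = 0.002), from 1.12 to 3.05 CPM in the bin itself. On barcodes 1 to 8 this call was lost (1.71, adjusted p = 0.073). In the authors' deposited FPKM values the transcript with the bin had 44.7% of the gene in starved larvae and 42.1% at 6 h, with no rise.

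*cyd-1* encodes cyclin D, which drives entry into the cell cycle and is needed for postembryonic divisions. Its bin 2 (chrII:12982035-12982117, plus strand) lies before the start of 1 of the 2 annotated transcripts. It was nearly without counts until 6 h, with 1 count in the 3 starved libraries together, 0 in both 1 h libraries, 1 in both 3 h libraries and 99 in the 3 libraries at 6 h. The shares at 6 h were 2.65%, 2.53% and 2.51%, and no other library exceeded 0.101%. The pooled share at 6 h was 79.7 times that in starved larvae, with a 95% counting interval of 14 to 3180 (exact, conditional on the total, covering counting error only). A count of 0 at 1 h allows a share of up to 0.171%. The call at 6 h had an adjusted p of 6.72e-05, and the level of the whole gene was 37.3, 37.5, 42.1 and 55.7 CPM in the 4 groups. The bin passed the minimum-count filter through the 6 h libraries alone, so this p-value is not independent of the rise. The call was kept with no filter on low counts, but that fit used the same counts and is not separate support. The 6 h call was the only one by edgeR, at any time, among the 107 tested members of the list of growth and nutrient signalling genes. Of these, 11, 6 and 6 had an unadjusted p under 0.05 at the 3 times, where 3.34%, 2.30% and 5.13% of all bins tested did. DESeq2 and limma each called 0, 0 and 1. In the authors' deposited FPKM values the transcript with the bin showed no rise, at 48.3% in starved larvae and 47.0% at 6 h.

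At 6 h the largest rise in share was that of *col-107*, a cuticle collagen. Its bin 3 (chrIV:1549348-1549461, plus strand) is, by the annotation, a 114-base retained intron of 1 of 2 transcripts. It held 5.43%, 13.3% and 11.3% of the counts in starved larvae, 9.66% and 10.1% at 1 h, 18% and 21% after 3 h, and 34.7%, 47.2% and 42.6% at 6 h. Starved and 1 h libraries overlapped, and those at 6 h were highest by a wide margin. Relative use rose at 6 h (2.03 ± 0.37, adjusted p = 0.00222), while the whole gene fell from 297 CPM in starved larvae to 18.2 CPM and the bin itself from 29.8 to 7.58 CPM. Per base, the bin had 1.42 times the counts of the constitutive internal bins of the gene in starved larvae and 11.7 times at 6 h. An intron kept by some transcripts would not by itself exceed the bins that every transcript holds. The share is therefore not the fraction of transcripts that keep the intron, and what lies behind the ratio was not tested. *obr-1* encodes a protein related to oxysterol-binding proteins. Its cassette bin 18 (chrIII:11267069-11267600, minus strand), of 1 of 4 transcripts, had shares of 2.97%, 0.800% and 3.68% in starved larvae, 5.67% and 3.51% at 1 h, 6.37% and 7.88% after 3 h, and 7.56%, 6.42% and 6.98% at 6 h. The 3 h and 6 h libraries were above all starved ones, and the change was called at 6 h (1.58 ± 0.32, adjusted p = 0.00997) but not without starved replicate 2 (1.06, adjusted p = 0.647), in DESeq2 (1.77, adjusted p = 0.0755), on the 2 groups alone (0.0842) or in the constitutive ratio (0.23).

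Genes of muscle and of the extracellular matrix around it held calls in both directions. Of the list of muscle sarcomere and cytoskeleton genes, 259 members in 38 genes were tested. At 1 h edgeR called 0, where 15 had an unadjusted p under 0.05, DESeq2 called 4 and limma 0. At 3 h 1 was higher and 1 lower, and at 6 h 4 were higher (all in *ttn-1*) and 2 lower (both in *unc-52*). The median log2 change was 0.03, 0.08 and 0.03 at the 3 times. Beside these values stand the summed muscle markers given above, which were lower after feeding and whose part was not tested. *unc-52* encodes perlecan, the basement membrane proteoglycan to which body wall muscle is attached. Its bin 4 (chrII:14648789-14649338, minus strand) belongs to 1 of 6 transcripts and lies after the end of the others. The shares were 2.75%, 3.11% and 2.85% in starved larvae, 2.09% and 2.38% at 1 h, 0.740% and 0.944% after 3 h, and 1.16%, 0.982% and 1.19% at 6 h. They did not overlap between starved and fed libraries, and the fall was called at 3 h (-1.79 ± 0.38, adjusted p = 0.0157) and 6 h (-1.42 ± 0.32, adjusted p = 0.014). The 6 h call was lost without 6 h replicate 1 (0.0608) or replicate 2 (0.137), and the 3 h call without 1 h replicate 2 (0.0505) or either 3 h library. On the 2 groups alone (0.148) and on barcodes 1 to 8 (0.0614) the 6 h change was not called either. The whole gene was at 348, 485, 461 and 473 CPM over the 4 groups, and its 9 constitutive internal bins had log2 changes between -0.45 and 0.60 at 6 h with none called.

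*nid-1*, which encodes nidogen, another basement membrane protein, had all 4 of its members called lower at 6 h. They are the adjoining cassette bins 11 to 14, with log2 changes between -1.90 and -1.78. Bin 13 (chrV:12914750-12915246, plus strand), found in 2 of 3 transcripts, had shares of 14.5%, 7.24% and 9.53% in starved larvae, 5.82% and 6.27% at 1 h, 4.53% and 4.02% after 3 h, and 2.37%, 3.48% and 2.97% at 6 h. The groups were ordered by time with no overlap between starved and fed, and the 6 h change was -1.80 ± 0.34 (adjusted p = 0.00116), a call lost without starved replicate 1 (-1.45, adjusted p = 0.0716). Of 10 constitutive internal bins none was called, with log2 changes between -0.20 and 1.06. Per base the bin had 1.14 times the counts of those bins in starved larvae and 0.248 times at 6 h. The authors' deposited FPKM values gave the 2 transcripts with bin 13 a share of 99.2% before feeding, 72.1% at 1 h, 45.2% at 3 h and 35.5% at 6 h.

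*ttn-1* encodes a titin-like giant protein of muscle. Its long bin 62 (chrV:6191671-6195630, minus strand) had shares of 2.91%, 1.59% and 2.87% in starved larvae, 8.32% and 8.03% at 1 h, 8.88% and 11.6% after 3 h, and 11.5%, 11.9% and 7.16% at 6 h. All fed libraries were above all starved ones (2.08 ± 0.47 at 6 h, adjusted p = 0.0127). Bins 64, 65 and 70 were also called higher at 6 h, and bin 64 at 3 h (2.68, adjusted p = 0.0242), a call lost without starved replicate 1 (0.15), starved replicate 2 (0.194), either 1 h library (0.0892 and 0.0837) or either 3 h library. With the replicate block this 3 h value of bin 64 was not called (2.63, adjusted p = 0.132), nor was it under limma's voom (0.316), on the 2 groups alone (0.102) or in the constitutive ratio, where it was 0.34 (adjusted p = 1). The rise was not limited to alternative bins. The 4 constitutive internal bins tested, which lie beside these in the 5′ part of the gene, had log2 changes between 1.97 and 3.15 at 6 h and 1 of them was called. When bin 62 was measured against constitutive internal bins alone its log2 change at 6 h was -0.46 (adjusted p = 0.73), the opposite direction. Of the 45 members tested, 22 were positive and 23 negative at 6 h. The whole gene fell from 643 CPM in starved larvae to 155 CPM. The call of bin 62 was also lost without starved replicate 2 (adjusted p = 0.177), 6 h replicate 1 (0.0723) or 6 h replicate 2 (0.116), and on the 2 groups alone (0.149). *fln-2* encodes a filamin, an actin-binding protein. Its cassette bin 45 (chrX:9422704-9423414, plus strand), of 2 of 4 transcripts, had shares of 4.29%, 5.01% and 3.59% in starved larvae, 3.12% and 3.17% at 1 h, 2.41% and 2.53% after 3 h, and 1.17%, 1.49% and 1.81% at 6 h. Each later group lay below the one before, and the fall at 6 h was called (-1.55 ± 0.30, adjusted p = 8.17e-04), as was that of the neighbouring bin 44 (-1.78, adjusted p = 0.00177). No other of the 46 tested *fln-2* members was called.

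**Figure D5:**
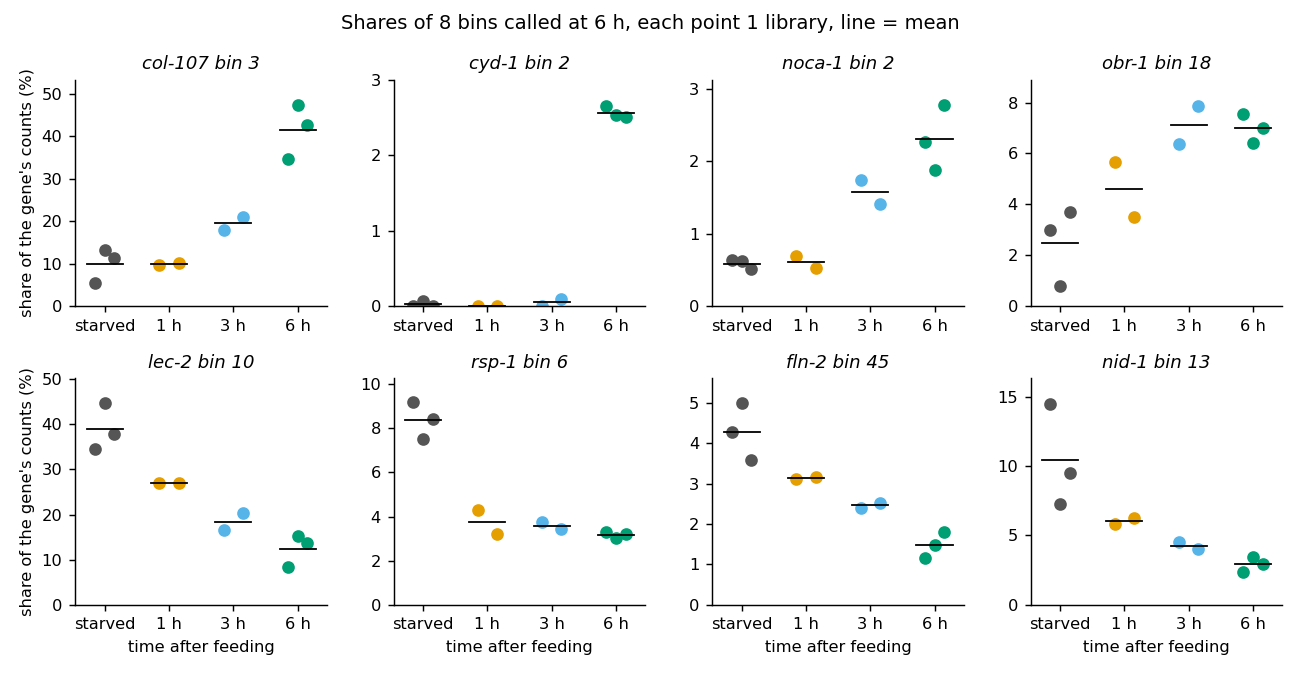
Share of the gene's counts in each of the 10 libraries for 8 bins called at 6 h, with the mean of each group as a line. The *col-107*, *cyd-1*, *noca-1* and *obr-1* bins were higher at 6 h, where *col-107* reached 47.2%, and the *lec-2*, *rsp-1*, *fln-2* and *nid-1* bins were lower.

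The largest fall in share at 6 h was in *lec-2*, which encodes a galectin, a lectin that binds galactosides. The 2102-base bin 10 (chrII:10012903-10015004, minus strand) lies before the start of 2 of the 4 transcripts. It held 34.5%, 44.6% and 37.8% of the counts in starved larvae, 26.9% and 27.1% at 1 h, 16.5% and 20.3% after 3 h, and 8.47%, 15.1% and 13.6% at 6 h. The share was lower at each later time with no overlap with starved larvae, and relative use fell at 6 h by a log2 of 1.67 ± 0.30 (-1.67; adjusted p = 4.33e-04). The gene as a whole fell from 1083 CPM in starved larvae to 240 at 1 h and 242 at 6 h, and the bin itself from 426 to 29.7 CPM. The direction was opposite to that of the other bins before a later start described above. It was not the only such fall, since 5 bins of this kind in 3 genes were called lower at 6 h. Bin 9 of *D2023.1*, given below, is also of this kind. *dhhc-4* encodes a palmitoyltransferase, an enzyme that attaches fatty acids to proteins. Its 63-base cassette bin 7 (chrIII:9865509-9865571, minus strand) had shares of 3.83%, 4.38% and 3.23% in starved larvae, 2.63% and 2.11% at 1 h, 0.292% and 1.66% after 3 h, and 0.903%, 0.717% and 0.160% at 6 h (-2.70 ± 0.52, adjusted p = 0.002). All fed libraries were lower, though the bin held as few as 2 counts in a library, and the call was lost without 6 h replicate 3 (0.0834), on barcodes 1 to 8 (0.0705) and in the constitutive ratio (0.128). In the authors' deposited FPKM values the transcripts with the bin moved the other way, from 40.1% of the gene in starved larvae to 53.5% at 6 h. *D2023.1* bin 9 went from 11.3%, 13.6% and 8.74% in starved larvae to 2.60%, 1.81% and 3.19% at 6 h (-2.12, adjusted p = 0.015), a call lost without starved replicate 1 (0.0849), starved replicate 2 (0.136) or 6 h replicate 2 (0.215), and under limma's voom (0.0783). *E02D9.1*, on chromosome I, had bins 11, 12 and 15 called at 3 h and bins 11, 15 and 16 at 6 h, all lower. Its bin 11 went from 1.89%, 2.91% and 1.55% in starved larvae to 0.279% and 0.245% at 3 h (-3.04, adjusted p = 0.0142) and 0.539%, 0.0571% and 0.334% at 6 h (-2.86, adjusted p = 6.67e-04). The 3 h call was lost without starved replicate 2 (0.098) or either 3 h library, and under limma's voom (0.358). Bins 15 and 16 overlap a bin of the other strand and are uncertain.

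Some called genes fell outside the rule for named bins and are given here after their values were seen. In *adss-1*, for adenylosuccinate synthetase of purine synthesis, bins 2 and 3, which lie after the end of 2 of the 3 transcripts, were called higher at 1 h (log2 2.16 and 1.82, adjusted p = 0.0383 and 0.00993). *dnj-20*, which encodes a chaperone with a J domain, had bin 8 called higher at 6 h (1.62 ± 0.37, adjusted p = 0.0275). *fig-1* is a gene expressed in glia, and the summed markers of coelomocytes, glia and excretory cell were higher at 6 h, as given above, their part not tested. That sum includes *fig-1* itself and is not separate from it. The counts of *fig-1* as a whole, not scaled for depth, were 4510 in the starved libraries together and 2940 in those at 6 h. Its bin 2 had 78 counts in the starved libraries together, 9 at 1 h, and 0 in each library at 3 h and 6 h. This bin passed the minimum-count filter through the starved libraries alone, so its p-values are not independent of the fall. Taking 3 counts over the group as the floor, the share was at least 8.56-fold lower at 3 h and at least 16.9-fold lower at 6 h, with adjusted p = 0.0242 and 1.79e-04. PCR copies are not independent molecules, so these limits cover counting error only. The remaining called genes were *srsx-34*, *gei-1*, *F25B5.3* and *T19D12.2*, all lower.

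Among the 402 tested members in 67 genes of the list of channels, synaptic and signalling genes of neurons and muscle, edgeR, DESeq2 and limma called 0 at each time, with 24, 14 and 34 at an unadjusted p under 0.05 and medians of 0.05, 0.02 and 0.06. Neuronal markers were lower after feeding in the same libraries, as given above. Of the 4 tested members in genes of the vacuolar ATPase, 0 were called by any of these tools and 0 had an unadjusted p under 0.05.

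The authors' deposited FPKM values per transcript allow a second look from the same reads, without replicates. The transcripts holding a called bin changed their percent of the gene in the direction of the bin for 12 of 17 members at 1 h, 13 of 14 at 3 h and 35 of 45 at 6 h that had estimates. Bins of a gene can share 1 estimate, as the 7 *tat-4* bins called at 3 h do, so these are not separate agreements. The *ttn-1* transcripts with the called bins were put at 100% in each group and could not change. The same tally was not made for members that were not called.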

How the data were processed

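Sample titles gave the groups. Poly(A) RNA was treated with tobacco acid pyrophosphatase, cleaved with RNase III and sequenced on SOLiD 4, per the labels' protocols. Alignment used Bowtie 0.12.7 with TopHat (submitters' processing notes). The authors made the deposited bin counts, raw whole numbers, with the DEXSeq annotation and counting scripts on WS210 gene models, per the deposited notes. A read that spans several bins counts in each. The strand setting of the bin counting is not stated in these sources, which makes bins overlapping the other strand's genes uncertain. For FPKM, the authors' deposited values came from Cufflinks 1.0.2 on the pooled libraries of a time point, per the deposited notes, and carry no SD. Symbols came from a RefSeq table of another build (WBcel235), with 12916 of 13117 genes matched, and no sequence or coordinate was taken from it.

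Relative bin use was tested in R 4.3.3 with edgeR 4.0.16 (filterByExpr by group with a minimum count of 10, TMM factors from 0.855 to 1.23, robust quasi-likelihood fit, 10 libraries, 6 residual degrees of freedom, diffSpliceDGE) on 82149 bins in 11772 genes. Genes sharing a merged identifier were left out. The biological coefficient of variation was 0.290. Lines for reads outside bins, 8.35% to 11.4% of the total, were left out of library sizes. CPM were computed here from the bin counts and library sizes. The test was tried on simulated counts with 200 changed bins, and 2 further calls fell in unchanged genes. DESeq2 1.42.0 and limma 3.58.1 were alternatives, as were other scalings, filters, sets of libraries and a block. Of 64 members of 25 to 27 bases 43 were tested and 0 called by edgeR at any fed time, and of 68 bins of 22 to 24 bases, just under the minimum length, 39 were tested and 0 called.

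Named bins were the called bins with no overlap of shares between groups, a mean count of 20 or more and no overlap with the other strand, 1 per gene, up to 8 with the largest rise and 8 with the largest fall in share at each time, and up to 5 called genes of each list. The members and lists were chosen with earlier results of these data known. Replicates differed beyond sampling noise in each pair. The chi-square over its degrees of freedom was 75.9 to 121 for the starved pairs, 24.2 at 1 h, 22.8 at 3 h and 47.0 to 66.9 at 6 h. The main fit estimated the spread over all groups together, and the part of this difference in the calls was not tested. Groups share barcode sets (barcodes 1 to 4, 5 to 8, and 13 and 16), which name no shared culture.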

Additional observations from a re-analysis of the deposited data

How the results depend on the processing

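Counts of called members were within 1.5 times the values given (22, 17 and 50 at 1 h, 3 h and 6 h) under RLE factors, library totals, no filter, a minimum count of 30, bins of 50 bases or longer, other-strand overlaps left out and barcodes 1 to 8 alone. DESeq2 called 43, 32 and 89, and 1 from 3 h to 6 h. limma's voom called 9 at 3 h. Fitting the 2 compared groups alone called 14 at 1 h and 32 at 6 h, 72 from 1 h to 3 h and 1 from 3 h to 6 h, with fewer samples to estimate the spread. The fit of 1 h and 3 h also left out the starved libraries, whose replicates differed most by the chi-square given above. The log2 ratio to constitutive internal bins called 4 at 1 h and 8 at 3 h, and the 6 h value of *ttn-1* bin 62 reversed to -0.46. The 5′ percent as a term, chosen after seeing the data, called 8, 1 and 2. Except where stated, the cause was not tested. Leaving out 1 library gave 1 to 33 calls at 1 h, 0 to 24 at 3 h, 28 to 50 at 6 h, 0 to 1 from 1 h to 3 h, and 0 to 0 from 3 h to 6 h. The lowest at 6 h was without 6 h replicate 2. At 3 h, 11, 9 and 7 were called without starved replicate 1, starved replicate 2 and 1 h replicate 2, and at 1 h 14, 13 and 13 without starved replicate 3 and either 3 h library.

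With barcode sets as a replicate block, 24, 21 and 61 members were called, and 1 from 1 h to 3 h and 1 from 3 h to 6 h. Libraries of a set correlated weakly in their deviations from group means (-0.03 to 0.18 over 13 pairs, median 0.05), against -0.21 to 0.11 for the 24 other pairs (median -0.04). In a group of 2 libraries the deviations mirror each other, so these pairs are not independent. The values do not settle whether the sets pair the samples, and the main fit used no block.

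Of the 41 named values over all alternatives, 653 repeats kept the call, 195 kept the direction and lost it, and 1 reversed. Depth limits bins with few counts most: the tested members had a median of 60 counts per library.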
